A study of Mus musculus with 4 samples.

Results

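The solute carriers are the largest group of membrane transporter genes, and 87 probes for 83 of them were measured in the neocortex of mouse embryos. They were chosen as the probes with a single gene symbol that starts with Slc and a number, and with a value on 3 or more of 4 arrays. The array held 118 such probes for 113 genes among its 6856 probes. RefSeq lists 375 protein-coding mouse genes with such symbols, so the array covers only some of the family. The remaining 31 probes had a value on fewer arrays, and 29 of these had none at all, which is 24.6% of the 118, against 14.3% of all probes.

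The series compared null mutants of a single gene, which its labels call synaptically silent, with normal mice, at embryonic day 16 and on the C57BL/6 background. There were 4 two-colour arrays, and each set total RNA from the neocortex of its own null sample against RNA from 1 pool of 4 control replicates. The null samples are described as biological replicates. Null RNA was in Cy3 on replicate 1 and in Cy5 on replicates 2, 3 and 4. A label of replicate 1 gives day 14 where its other labels give day 16, and it was kept as day 16.

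Solute carriers move ions, sugars, amino acids, transmitters, metals and metabolites across the plasma membrane, the synaptic vesicle membrane and the membranes of organelles. Many of them draw on ion gradients that the sodium pump and the vesicular proton pump set up. In the developing cortex, vesicular and plasma membrane transporters load and clear transmitters, and cation-chloride cotransporters set the chloride gradient on which the effect of GABA depends.

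The values are log ratios of the 2 channels of an array, taken as log2, and they hold no level of a gene. Fold sizes rest on that log base, which the sources used here do not name. Without levels, the labelled tissue could not be checked against its markers, and fewer cells of a type cannot be told apart from less RNA per cell. The sources used here do not say which channel is on top of the ratio, and a negative value cannot be read as lower or higher in the null. Signs are given as deposited. Replicates 2, 3 and 4 ran the same way whichever channel was on top, and they carried the tests. Null RNA was in Cy5 on all 3 of them, so in the tests, and in the shared signs of these arrays, a difference by genotype and a dye bias of a probe cannot be told apart. Replicate 1 had the opposite dyes, and its value is given separately, as deposited. Because all arrays share 1 pool, the tests leave out the spread between control animals.

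No solute carrier passed the adjusted threshold, and more of them lay below 0 than above it. Of the 84 member probes measured on replicates 2 to 4, 0 had an adjusted p under 0.05 with limma, as was so for 0% of the 5720 probes tested, and the smallest adjusted p among the members was 0.454. At an unadjusted p under 0.05, limma listed 9 members, all negative. That is 10.7% of the members, against 4.06% of all probes listed as negative and 5.61% listed as positive, or 9.67% with either sign. The share listed with either sign was therefore close to that of the array, while the 9 had a single sign. The number listed was 2 without replicate 2, 14 without replicate 3 and 6 without replicate 4, where 4.09%, 9.5% and 10.9% of all probes had such a p. In a limma fit of all 4 arrays it was 9 after turning replicate 1 and 7 with replicate 1 as deposited, beside 8.44% and 7.12% of all probes. The 9 were all negative, and 6 of them were also among the 9 from replicates 2 to 4. The 7 held 5 negative and 2 positive members, and the 5 negative ones were among the 9 from replicates 2 to 4. Array weights, estimated by limma from the values of replicates 2 to 4, raised it to 21 members, 18 of them negative, and to 18.7% of all probes.

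The sign of the ratios showed the same lean. Over replicates 2 to 4, 24 members were negative on all 3 arrays and 4 were positive on all 3. These are 28.6% and 4.76% of the members, against 17.3% and 16.3% of all probes. A sign of either kind shared by the 3 arrays was as common among the members, at 33.3%, as among all probes, at 33.5%. The median of the mean log ratio was -0.10 over the members and -0.016 over all probes, and 54 members, or 64.3%, had a negative mean, against 52.6% of all probes. A mean beyond 0.5 in size, of either sign, was found for 8.33% of the members and 8.72% of all probes. All 7 such members were negative, as the highest mean of any member was 0.39. The median SD between the 3 arrays was 0.28 for the members and 0.27 for all probes.

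**Figure D1:**
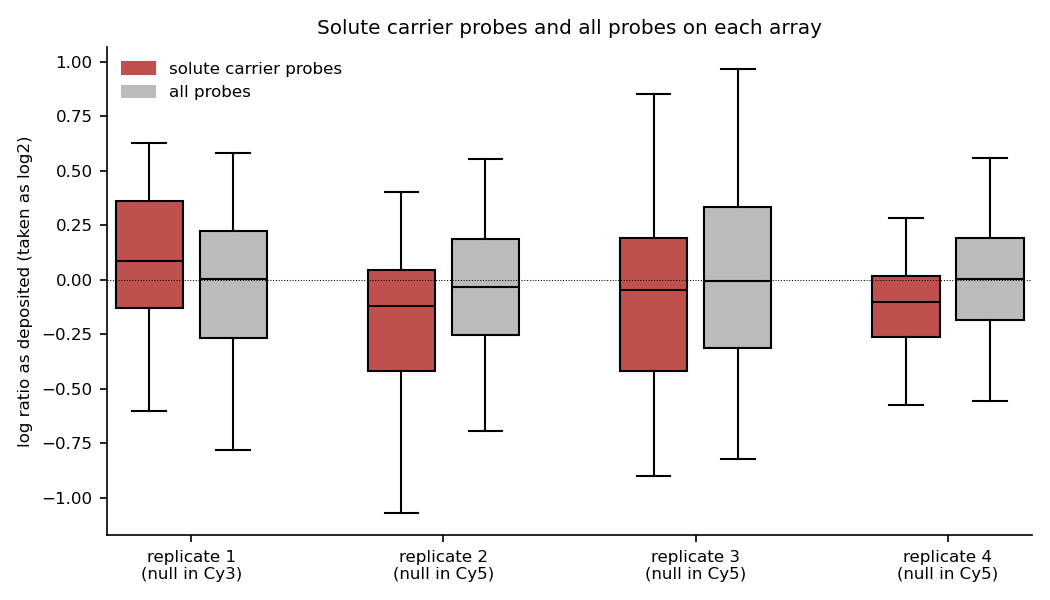
Log ratio as deposited of the solute carrier probes (red, left of each pair) and of all probes (grey) on each of the 4 arrays. Boxes span the quartiles with the median as a line, and whiskers reach the 5th and 95th percentiles. Replicate 1 had a members' median of 0.09, while replicates 2, 3 and 4 had -0.12, -0.05 and -0.10.

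The lean was clearest on replicates 2 and 4, as the boxes by array show. On replicate 2, 61 of 87 members were negative, or 70.1%, against 54.1% of all probes. On replicate 4 the share was 73.6%, against 49.3%, and on replicate 3 it was 52.4%, against 50.3%. Replicate 3 also had the widest spread over all probes, with an SD of 0.63, beside 0.40 to 0.48 on the other arrays. On replicate 1, with the dyes the other way round, 40.2% of members were negative, against 49.8% of all probes.

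Among the 84 members with a value on every array, 15 were negative on replicates 2 to 4 and positive on replicate 1. That pattern made up 17.9% of the members and 9.58% of all probes. The mirror pattern, positive on replicates 2 to 4 and negative on replicate 1, was seen for 0 members and for 8.53% of all probes. A negative value on all 4 arrays was found for 9 members, or 10.7%, against 7.74% of all probes, and a positive one for 4 members, or 4.76%, against 7.77%. If the ratio is always channel 2 over channel 1, the first 2 patterns are those of genes that run one way by genotype. If the authors had already turned replicate 1, the last 2 are. Which of these holds was not tested.

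**Figure D2:**
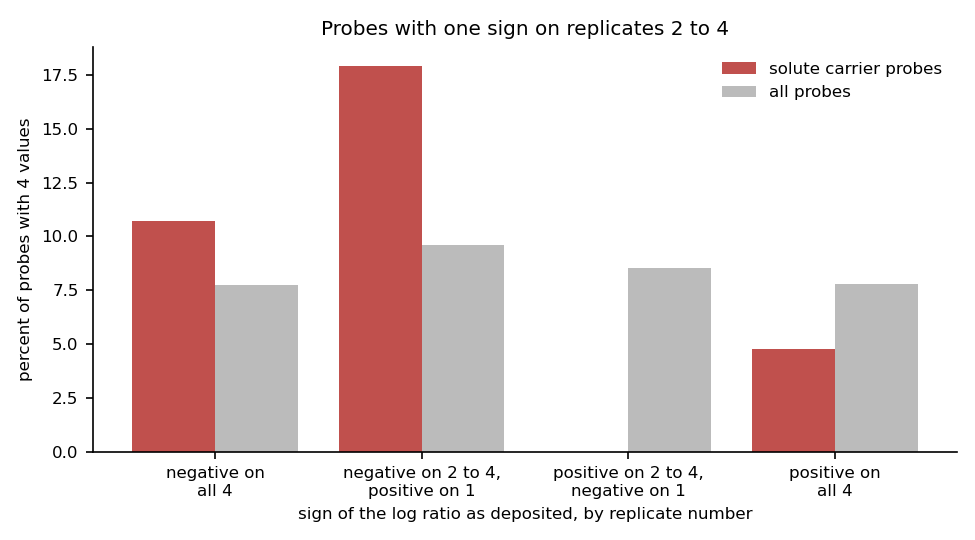
Percent of probes with a value on all 4 arrays that had a single sign on replicates 2 to 4, split by the sign of replicate 1, for solute carrier probes (red, left) and all probes (grey). The bar of negative values on replicates 2 to 4 with a positive value on replicate 1 stands at 17.9% for solute carriers and 9.58% for all probes, and the mirror bar is empty for solute carriers.

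Transporters of transmitters and amino acids at the plasma membrane and at the vesicle membrane included the carriers that end and prepare synaptic transmission. The 15 tested probes came from Slc1, Slc6 and Slc32. On all 3 arrays, 7 of them were negative and 0 positive, against 17.3% and 16.3% of all probes. The median of the 15 means was -0.22. Of the 15, 1 probe had an unadjusted p under 0.05 in limma, as did 9.67% of all probes. On replicate 1 the lean ran the other way, with 13 of the 15 positive and a median of 0.21.

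Slc6a2, the plasma membrane transporter that takes up noradrenaline, had 2 probes. The first (ID 2926) had -0.54, -0.43 and -0.34 on replicates 2, 3 and 4, and 0.14 on replicate 1. Its values on replicates 2 to 4 lay close together, with a mean of -0.44 ± 0.10 (SD, n = 3) and an unadjusted p of 0.0225 from limma. The other probe (ID 1201) had -2.10 on replicate 2, against 0.15 and 0.44 on replicates 3 and 4, and 0.44 on replicate 1. The probes therefore differed in sign on 2 of the 3 arrays, and the gene, averaged over both, had a mean of -0.47 with an unadjusted p of 0.152 from limma.

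Glutamate transporters were measured by 5 probes. Slc1a2, the main glutamate transporter of astroglia, had -0.19, -1.05 and -0.06 on replicates 2, 3 and 4, and 0.38 on replicate 1. Replicate 3 was far lower than the others, and the mean was -0.43 ± 0.54 (SD, n = 3). Slc1a3, the glutamate transporter of radial glia and astroglia, was negative on replicates 2 to 4 at one probe (ID 1202), with -0.46, -0.05 and -0.31, and had 0.14 on replicate 1. Its other probe (ID 6543) had -0.09, 1.17 and -0.010 on replicates 2, 3 and 4, and 0.27 on replicate 1. The probes of Slc1a3 thus had means of opposite sign, -0.27 ± 0.21 and 0.35 ± 0.71, and they differed most on replicate 3.

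Slc1a1, a glutamate transporter of neurons, showed a similar split. One probe (ID 418) had -0.08, 0.90 and -0.016 on replicates 2, 3 and 4 and 0.05 on replicate 1, while the other (ID 2919) had 0.33, -0.33 and -0.10, and 0.25 on replicate 1. Neither probe kept a sign over the 3 arrays. Slc1a4, a transporter of serine and other neutral amino acids, was negative on all 3, at -0.22 ± 0.11 (SD, n = 3). Slc1a5, a transporter of glutamine and other neutral amino acids, had no value on replicate 3 and was not tested. Replicates 2 and 4 had -2.77 and -0.32, and replicate 1 had -0.04.

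Slc32a1 encodes the transporter that loads GABA and glycine into synaptic vesicles, and it was the only measured carrier of this group known from the vesicle membrane of neurons. It had -0.67, -0.05 and -0.27 on replicates 2, 3 and 4, and -0.16 on replicate 1. All 4 values were negative, with a mean of -0.33 ± 0.31 over replicates 2 to 4 (SD, n = 3) and an unadjusted p of 0.106 from limma. The enzymes that make GABA, Gad1 and Gad2, had opposite signs. Gad1 was negative on every array, with -0.36, -0.11 and -0.27 on replicates 2, 3 and 4 and -0.84 on replicate 1, and an unadjusted p of 0.142 from limma. Gad2 had 0.92, 0.74 and 0.49 on replicates 2, 3 and 4 and -0.04 on replicate 1. The unadjusted p of Gad2 from limma was 0.00404 and its adjusted p 0.450. Slc17a1, a renal sodium-phosphate transporter of the family of the vesicular glutamate transporters, had no value on replicate 3. Replicates 2 and 4 had -0.08 and -1.25, and replicate 1 had -0.57.

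Among the other Slc6 genes, the taurine transporter Slc6a6 had -0.21, -0.68 and -0.26 on replicates 2, 3 and 4, and 0.43 on replicate 1. Its mean was -0.38 ± 0.26 (SD, n = 3) with an unadjusted p of 0.0594 from limma. Slc6a12, the betaine and GABA transporter, was also negative on all 3 at -0.20 ± 0.13, with 0.58 on replicate 1. The serotonin transporter Slc6a4, the glycine transporter Slc6a9, Slc6a20b of the imino acid transporters and Slc6a14, a transporter of many amino acids, changed sign between arrays. Their means were 0.09 ± 0.14, -0.09 ± 0.28, -0.27 ± 0.30 and 0.36 ± 0.55. The vesicular glutamate transporters Slc17a6 and Slc17a7 and the vesicular amine transporter Slc18a2 were not analysed here.

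**Figure D3:**
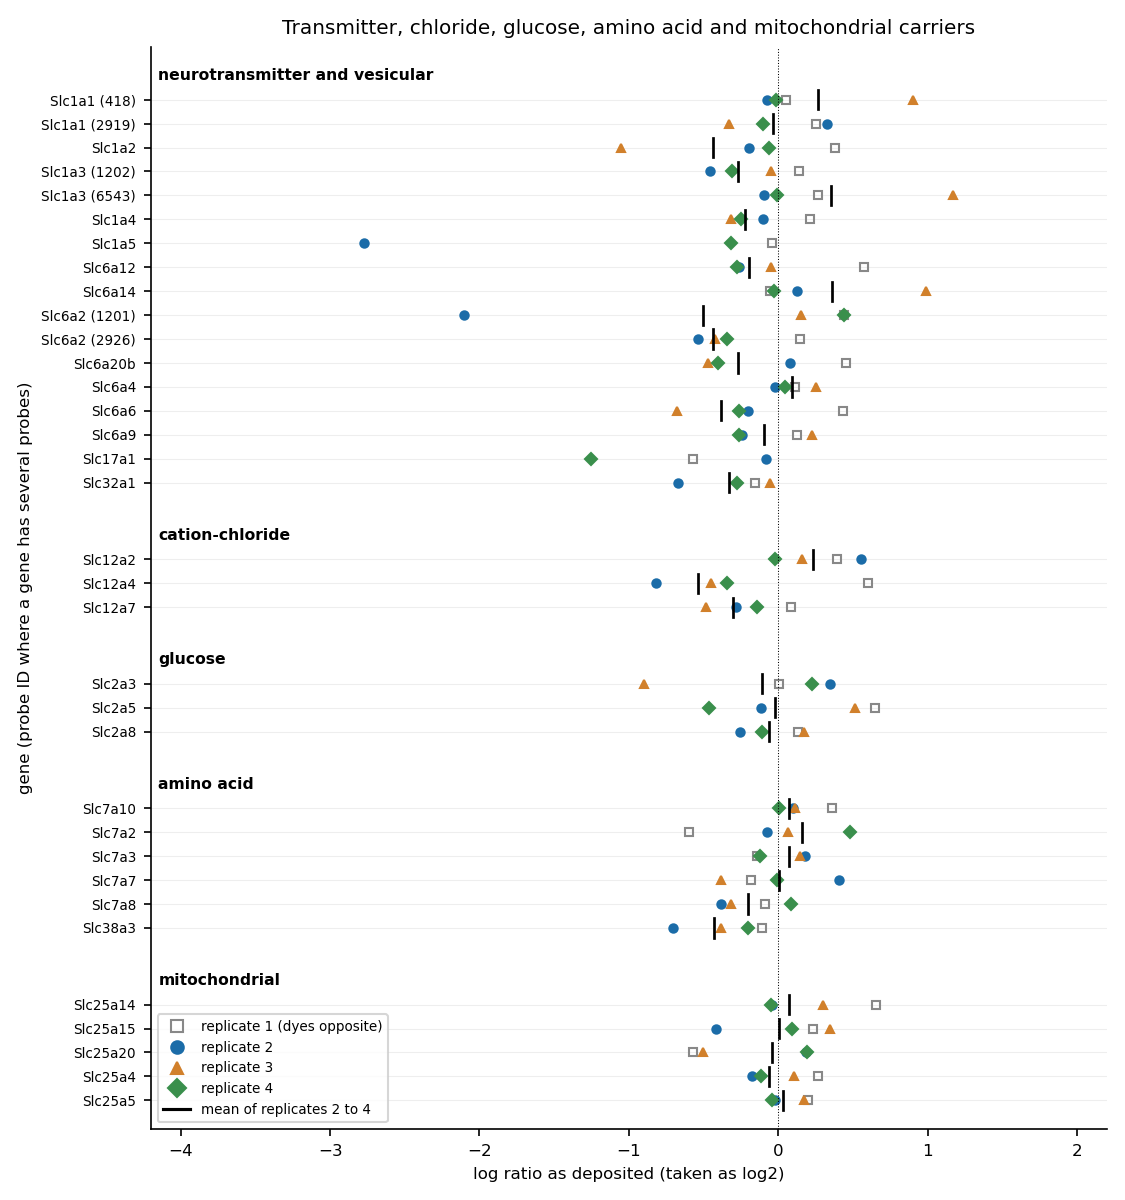
Log ratio as deposited of each solute carrier probe of the transmitter and vesicular, cation-chloride, glucose, amino acid and mitochondrial groups. Filled symbols are replicates 2, 3 and 4, open squares replicate 1 with the opposite dyes, and bars the mean of replicates 2 to 4. Slc12a4 and Slc38a3 had all 3 filled symbols below 0, and the mitochondrial carriers had means within 0.07 of 0.

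The cation-chloride cotransporters split into those that carry chloride out of the cell with potassium and the one that carries it in with sodium. Slc12a4, the potassium-chloride cotransporter KCC1 found in most cell types, had -0.82, -0.45 and -0.35 on replicates 2, 3 and 4, and 0.60 on replicate 1. Its values on replicates 2 to 4 were all negative, with a mean of -0.54 ± 0.25 (SD, n = 3), or 1.45-fold in size, and an unadjusted p of 0.0165 from limma. With replicate 1 turned, the mean over 4 arrays was -0.55 with an unadjusted p of 0.00442 from limma, and with replicate 1 as deposited it was -0.25 with a p of 0.301. Slc12a7, the related KCC4, had -0.28, -0.48 and -0.14 on replicates 2, 3 and 4, and 0.08 on replicate 1. It shared the sign of Slc12a4 on each array, at a mean of -0.30 ± 0.17, without reaching that p.

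Slc12a2, the cotransporter NKCC1 that accumulates chloride in immature neurons, had 0.55, 0.16 and -0.022 on replicates 2, 3 and 4, and 0.39 on replicate 1. The values on replicates 2 to 4 spread over both signs, and the mean of 0.23 ± 0.29 (SD, n = 3) had a 95% interval of -0.19 to 0.65 from limma. The neuronal potassium-chloride cotransporter Slc12a5 was not analysed here. A mixed list of kinases, scaffolds and other partners, not all of them of chloride carriers, had 6 of 11 genes measured. These were Bsg, Sgk1, Nptn, Emb, Stk39 and Ckb. Of the 6, 0 had an unadjusted p under 0.05 in limma, with a median of -0.09.

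Glucose carriers did not share a sign between arrays. Slc2a3, the glucose transporter of neurons, had 0.35, -0.90 and 0.23 on replicates 2, 3 and 4, and 0.0075 on replicate 1. Replicate 3 stood apart, and the mean was -0.11 ± 0.69 (SD, n = 3). Slc2a5, a fructose transporter, and Slc2a8, an intracellular hexose transporter, had means of -0.022 ± 0.49 and -0.06 ± 0.22. Slc2a1, the glucose transporter of the blood-brain barrier, and Slc2a4, the insulin-regulated one, had no value on any array. Glycolysis, which uses the sugar these carriers bring in, had 94 probes for 15 genes, of which 0 had an unadjusted p under 0.05 in limma, and a median of -0.030. Of those probes, 78 are repeats of Gapdh, and the other 16, for 14 genes, had a median of -0.08.

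Amino acid carriers of Slc7 stayed near 0, while Slc38a3 did not. Slc38a3, a glutamine transporter of astroglia, had -0.71, -0.38 and -0.20 on replicates 2, 3 and 4, and -0.11 on replicate 1. All 4 arrays were negative, with a mean of -0.43 ± 0.26 over replicates 2 to 4 (SD, n = 3), 1.35-fold in size, and an unadjusted p of 0.0395 from limma. The 5 tested Slc7 probes had means between -0.21 and 0.16. Slc7a10, a transporter of small neutral amino acids, was positive on all 4 arrays but small, with a mean of 0.07 ± 0.06. The cationic amino acid transporters Slc7a2 and Slc7a3 had 0.16 ± 0.29 and 0.07 ± 0.16, and Slc7a7 and Slc7a8, light chains of heteromeric transporters, had 0.0051 ± 0.39 and -0.21 ± 0.25. None of these kept a sign over replicates 2 to 4 except Slc7a10. Slc7a9, another light chain, fell outside the members with values on 2 arrays, 6.85 on replicate 3 and -0.15 on replicate 4.

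Genes of astroglia were read beside these transporters. Of the 11 astroglial markers listed, 6 were measured, 5 of these had a negative mean, and the median was -0.21. A negative value on all of replicates 2 to 4 was shared by 3 of the 6, against 17.3% of all probes. The gap junction protein Gja1 had -0.56 ± 0.33 (SD, n = 3) and an unadjusted p of 0.0212 from limma, and it was the only one of the 6 under 0.05. The part of these markers in the values of Slc1a2, Slc1a3 and Slc38a3 was not tested.

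The mitochondrial carriers, which exchange nucleotides and metabolites across the inner membrane, had the narrowest range of all groups with 5 or more probes. Slc25a4, the ADP/ATP exchanger of heart, muscle and neurons, had -0.18, 0.10 and -0.11 on replicates 2, 3 and 4, and 0.26 on replicate 1. Its mean was -0.06 ± 0.15 (SD, n = 3), with a 95% interval of -0.42 to 0.30 from limma. Slc25a5, the ADP/ATP exchanger of dividing cells, had 0.034 ± 0.12, and Slc25a14, an uncoupling protein relative of the brain, had 0.07 ± 0.20. The ornithine carrier Slc25a15 and the carnitine-acylcarnitine carrier Slc25a20 had 0.0072 ± 0.39 and -0.04 ± 0.40. None kept a sign over replicates 2 to 4. Slc25a10, the dicarboxylate carrier, had values on 2 arrays only, -0.92 on replicate 4 and -0.42 on replicate 1, and was no member. Of 20 listed genes of mitochondrial import and the outer membrane, 14 were measured, with 9 positive means and a median of 0.07. Of the 14, 1 had an unadjusted p under 0.05 in limma, the import chaperone Timm9 at 0.42 ± 0.15. Among all probes, 5.61% were positive with such a p.

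**Figure D4:**
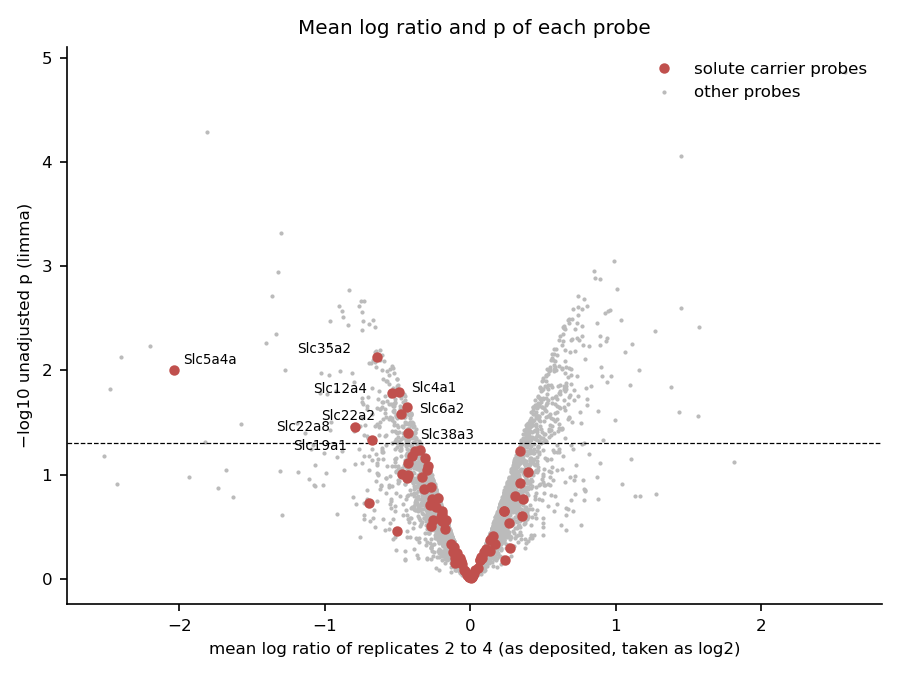
Mean log ratio of replicates 2 to 4 (horizontal, as deposited) against -log10 of the unadjusted limma p (vertical) for the solute carrier probes (red) and the other probes (grey). The dashed line marks a p of 0.05, and the 9 named members above it all lie left of 0, from -2.03 to -0.43.

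Among the exchangers of bicarbonate, protons, calcium and other ions, the red cell anion exchanger Slc4a1, known as band 3, had -0.38, -0.67 and -0.44 on replicates 2, 3 and 4, and -0.29 on replicate 1. It was negative on every array, with a mean of -0.49 ± 0.15 (SD, n = 3), 1.41-fold in size, and an unadjusted p of 0.0161 from limma. Over 4 arrays the unadjusted p from limma was 0.0115 with replicate 1 as deposited and 0.141 with it turned. Other red cell genes lay on both sides of 0. Of 23 listed, 9 were measured, 5 with a positive mean and 4 with a negative one, and their median was 0.0029. The embryonic globin Hba-x had -0.60, -0.71 and -0.93 on replicates 2, 3 and 4 and 0.37 on replicate 1, and it was the only one of the 9 under an unadjusted p of 0.05. The part of red cells in the value of Slc4a1 was not tested.

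The neuronal bicarbonate transporters differed in sign. Slc4a8, a sodium-driven chloride-bicarbonate exchanger, had -0.30, -0.24 and -0.32 on replicates 2, 3 and 4, and 0.10 on replicate 1. It had the smallest spread of all members, at -0.29 ± 0.04 (SD, n = 3), and an unadjusted p of 0.0832 from limma, in which the variance is drawn toward that of other probes. Slc4a10, a related sodium-coupled transporter of neurons and choroid plexus, was positive on all 4 arrays, with 0.05, 0.85 and 0.28 on replicates 2, 3 and 4 and 0.63 on replicate 1. Its mean over replicates 2 to 4 was 0.39 ± 0.41, the most positive of all members, with an unadjusted p of 0.0948 from limma. Over all 4 arrays as deposited it was 0.45, with an unadjusted p of 0.0292.

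Slc4a3, the anion exchanger AE3 of brain and heart, was negative on every array at -0.40 ± 0.33 (SD, n = 3). The anion exchanger Slc4a2 and the bicarbonate cotransporter Slc4a4 had -0.0080 ± 0.27 and -0.11 ± 0.18, with signs that differed between arrays. Slc8a1, the sodium-calcium exchanger NCX1, had 2 probes with means of opposite sign, -0.13 and 0.11. Slc9a3, a sodium-proton exchanger best known from kidney and gut, had -0.47 ± 0.58. The sulphate transporter Slc26a2 and the intestinal chloride-bicarbonate exchanger Slc26a3 had the widest range over the 4 arrays here. Slc26a2 had 0.62, -0.09 and 0.50 on replicates 2, 3 and 4 but -3.88 on replicate 1, and Slc26a3 had 0.28, -2.17 and -0.19 on replicates 2, 3 and 4 and -1.24 on replicate 1.

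The carriers of nucleotide sugars feed the glycosylation enzymes of the Golgi and the endoplasmic reticulum. Slc35a2, the UDP-galactose transporter of the Golgi, had the smallest p of all members. It had -0.45, -0.91 and -0.58 on replicates 2, 3 and 4, and -0.14 on replicate 1. All values were negative, with a mean of -0.64 ± 0.24 (SD, n = 3), 1.56-fold in size, and a 95% interval of -1.04 to -0.25 from limma. Its unadjusted p from limma was 0.00747 and its adjusted p 0.454. Over 4 arrays its unadjusted p from limma was 0.0475 after turning replicate 1 and 0.0132 with replicate 1 as deposited.

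Other members of Slc35 lay on both sides of 0. Slc35a1, the CMP-sialic acid transporter, had 0.13 ± 0.22 (SD, n = 3), and Slc35b1, a carrier of the same family, had -0.0084 ± 0.09. Slc35b4 shared the sign of Slc35a2 on replicates 2 to 4, with -0.12, -0.42 and -0.06, and had 0.09 on replicate 1. Its mean was -0.20 ± 0.19, with an unadjusted p of 0.241 from limma. Slc35g3 was positive on every array, with 0.49, 0.21 and 0.32 on replicates 2, 3 and 4 and 0.30 on replicate 1. Its mean was 0.34 ± 0.14 with an unadjusted p of 0.0592 from limma, and 0.0349 over all 4 arrays as deposited. The nucleoside transporters Slc28a3, Slc29a1 and Slc29a2 had means between -0.12 and 0.05 and changed sign between arrays.

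Metal ion carriers lay close to 0 as well. The zinc transporters Slc30a1, Slc30a4, Slc30a5, Slc30a7 and Slc30a9 had means between -0.09 and 0.08, and the iron transporter Slc11a2 had 0.17 ± 0.48 (SD, n = 3). None of these 6 kept a sign over replicates 2 to 4. Slc30a4 and Slc30a7 had 0.54 and 0.75 on replicate 1. Slc30a3, the zinc transporter of synaptic vesicles, and the iron exporter Slc40a1 had no value on any array.

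Carriers of organic acids, organic ions, vitamins and lipids were grouped with the sodium-coupled cotransporters of Slc5. This group held 23 of the 84 tested members. Of the 9 members with an unadjusted p under 0.05 in limma, it held 4, which are Slc22a8, Slc22a2, Slc19a1 and, from Slc5, Slc5a4a. All 4 were negative, against 4.06% of all probes with such a p and sign. In this group, 9 of 23 tested probes were negative on all 3 arrays and 1 was positive, against 17.3% and 16.3% of all probes. The median of the group was -0.20. Slc5a4a, a mouse member of the sodium-glucose cotransporter family, had the mean furthest from 0, with -1.07, -3.80 and -1.24 on replicates 2, 3 and 4, against 0.05 on replicate 1. Replicate 3 was more than 2 units below the others. The mean was -2.03 ± 1.53 (SD, n = 3), 4.10-fold in size, with an unadjusted p of 0.00999 from limma. Its close relative Slc5a4b had -1.09, 1.75 and 0.04 on replicates 2, 3 and 4, and -3.34 on replicate 1. These genes are similar in sequence, and the probe sequences were not used here, so that cross-hybridisation between them is uncertain. Both probes also had values far outside the range of most members.

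The organic ion transporters of Slc22 had negative means at all 5 tested probes. Slc22a8, the organic anion transporter OAT3 of kidney, choroid plexus and brain vessels, had -0.93, 0.012 and -1.46 on replicates 2, 3 and 4, and -0.18 on replicate 1. Replicate 3 did not share the sign, and the mean was -0.79 ± 0.74 (SD, n = 3) with an unadjusted p of 0.0351 from limma. Slc22a2, the organic cation transporter OCT2, had -0.77, -0.33 and -0.34 on replicates 2, 3 and 4, and 0.67 on replicate 1. Its mean was -0.48 ± 0.25, 1.39-fold in size, with an unadjusted p of 0.0261 from limma, which was 0.00646 over 4 arrays after turning replicate 1 and 0.433 without turning it.

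Of the other Slc22 genes, the organic anion transporter Slc22a6 was negative on every array at -0.35 ± 0.16 (SD, n = 3), with an unadjusted p of 0.0580 from limma. Slc22a17, a receptor of lipocalin 2 in this family, was also negative on every array, with -0.21, -0.93 and -0.16 on replicates 2, 3 and 4 and -0.10 on replicate 1. The carnitine transporter Slc22a5 had 0.013, -0.71 and -0.26 on replicates 2, 3 and 4, and 0.58 on replicate 1. Slc22a18 had no value on replicate 3 and had -1.99 and 0.98 on replicates 2 and 4 and -2.28 on replicate 1, with no test.

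Slc19a1, the reduced folate carrier, had -0.76, 0.035 and -1.31 on replicates 2, 3 and 4, and 0.53 on replicate 1. As for Slc22a8, replicate 3 lay near 0, while replicates 2 and 4 were well below it. The mean was -0.68 ± 0.67 (SD, n = 3) and the unadjusted p 0.0465 from limma. When probes with a missing value were let into the fit, that p was 0.0526.

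Fatty acid transport proteins of Slc27 had negative means at all 5 probes, between -0.31 and -0.07, and 0 with an unadjusted p under 0.05 in limma. Slc27a2 and Slc27a5, which also activate fatty acids, were negative on replicates 2 to 4, at -0.31 ± 0.09 and -0.17 ± 0.08 (SD, n = 3). Slc27a1, Slc27a3 and Slc27a4 had at least 1 positive array. The monocarboxylate transporters Slc16a1 and Slc16a7, which carry lactate and ketone bodies, had 0.017 ± 0.22 and 0.14 ± 0.47, and their relative Slc16a11 had -0.18 ± 0.27. Slc15a2, the peptide transporter PEPT2, was positive on every array, with 0.031, 0.76 and 0.14 on replicates 2, 3 and 4 and 0.28 on replicate 1.

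The phosphate transporters Slc20a1 and Slc20a2 had -0.10 ± 0.45 and -0.18 ± 0.21 (SD, n = 3), and Slc20a2 had 0.81 on replicate 1, the highest value of any member there. The ascorbate transporter Slc23a2 was negative on every array, at -0.20 ± 0.27. Slc37a4, the glucose-6-phosphate transporter of the endoplasmic reticulum, was negative on replicates 2 to 4, at -0.24 ± 0.28. The acetyl-CoA transporter Slc33a1 and Slc5a7, the choline transporter of cholinergic neurons, had 0.011 ± 0.36 and 0.0087 ± 0.36, with both signs among their arrays. The haem transporter Slc48a1 had -0.99, 0.014 and -0.32 on replicates 2, 3 and 4, and 0.60 on replicate 1. Slc43a3 and Slc46a2 had -0.27 ± 0.59 and 0.27 ± 1.04. Slc4a1ap, which the symbol brings in although it encodes an adaptor protein of the anion exchanger and no carrier, had 0.23 ± 0.28.

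**Figure D5:**
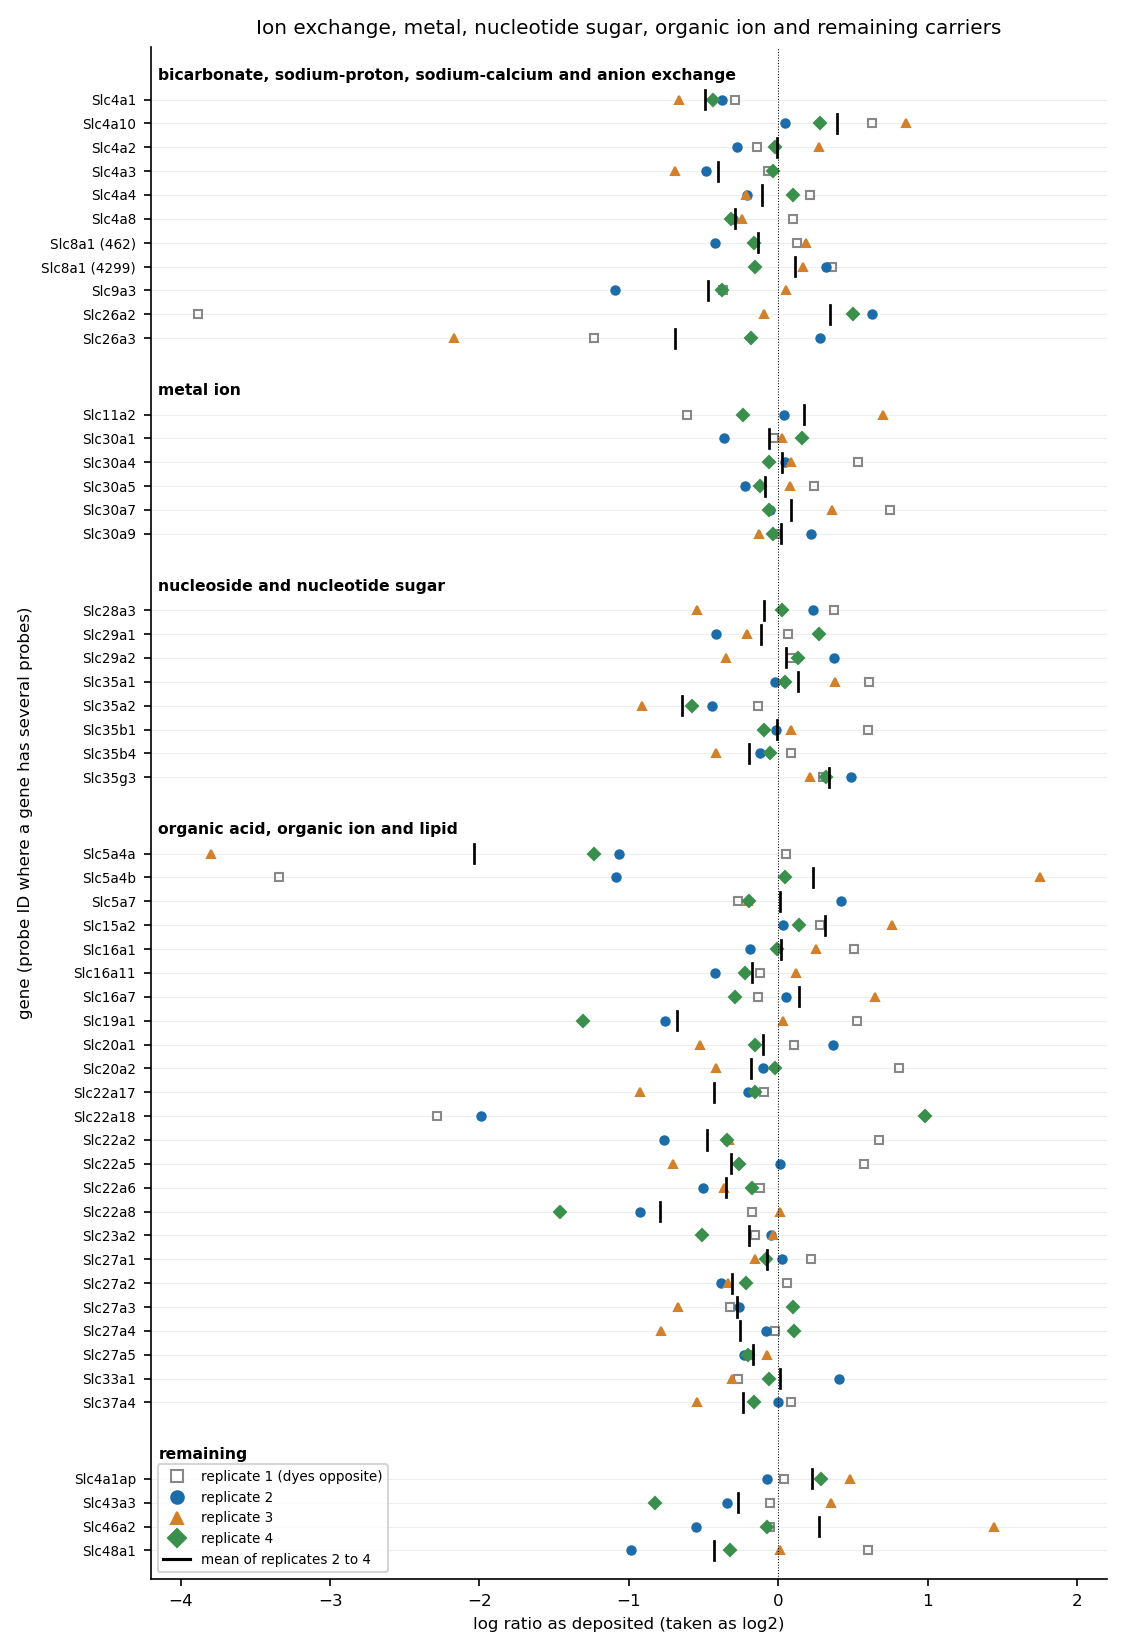
Log ratio as deposited of each solute carrier probe of the ion exchange, metal ion, nucleotide sugar, organic ion and remaining groups. Filled symbols are replicates 2, 3 and 4, open squares replicate 1 with the opposite dyes, and bars the mean of replicates 2 to 4. Slc35a2 lies below 0 on every array and Slc35g3 above it, while Slc5a4a reaches -3.80 on replicate 3 and Slc26a2 -3.88 on replicate 1.

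Markers of other cell types in which some of these carriers are abundant were read beside them. Of 21 listed vessel genes, 14 were measured, with 10 negative means and a median of -0.17. An unadjusted p under 0.05 in limma was found for 5, all negative, against 4.06% of all probes with such a p and sign. Sox17, a transcription factor of endothelial cells, had -0.73, -2.38 and -1.11 on replicates 2, 3 and 4 and 0.26 on replicate 1, and the efflux pump Abcb1a had -0.37 ± 0.02 (SD, n = 3). Of 14 choroid plexus genes, 7 were measured and split into 4 positive and 3 negative means. At an unadjusted p under 0.05 in limma, 2 of the 7 were positive and 1 negative, against 5.61% and 4.06% of all probes. Cldn2, a tight junction protein, had 1.27 ± 0.71, Kl had 0.62 ± 0.43, and Ttr, transthyretin, had -0.68 ± 0.53. Of 12 meningeal genes, 8 were measured, 6 with a negative mean. Of the 8, 2 had an unadjusted p under 0.05 in limma, both negative, against 4.06% of all probes with such a p and sign. They were Ptgds, prostaglandin D synthase, at -1.36 ± 0.62 and Foxc1 at -0.38 ± 0.12. Of 14 neuronal genes, 11 were measured, with 4 positive and 7 negative means and a median of -0.05, and Dcx, a microtubule protein of young neurons, had 0.40 ± 0.21. The part of these cell types in the values of the carriers they express, such as Slc22a8, was not tested.

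Transporters outside the solute carriers, and the pumps that drive them, were read beside the members. Genes of the ABC family, most of which encode ATP-driven transporters, had 4 of 24 probes at an unadjusted p under 0.05 in limma. All 4 were negative, against 4.06% of all probes with such a p and sign. Abcb1a, counted with the vessel genes above, is among them. The median over the 24 was -0.07, with 17 negative means. Of these 24, 6 were negative and 4 positive on all 3 arrays, against 17.3% and 16.3% of all probes. On replicate 4 only 10 of the 24 were negative, with a median of 0.06. The efflux pump Abcg2 had -0.37, -0.57 and -0.56 on replicates 2, 3 and 4 and 0.69 on replicate 1, and the conjugate and nucleotide exporter Abcc5 had -0.48 ± 0.15 (SD, n = 3). The sodium pump had 6 of 13 listed genes measured, all with a negative mean, between -0.24 and -0.05, and 0 with an unadjusted p under 0.05 in limma. They were Atp1b1, Atp1b2, Atp1b3, Fxyd1, Fxyd2 and Fxyd5, with no catalytic Atp1a subunit among them. The vesicular proton pump had 9 of 19 measured, with 6 negative means, a median of -0.09 and again 0 under 0.05. Enzymes of transmitter metabolism had 9 of 22 measured, with 6 negative means. Their 2 members under 0.05 were both positive, against 5.61% of all probes with such a p and sign. They were Gad2 as above and Ddc, which makes dopamine and serotonin, at 0.37 ± 0.06.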

How the data were processed

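The authors deposited processed log ratios in a single column for each array, treated here as log2 ratios, and all columns were used. No source used here names the log base, the numerator, the background correction or the normalization. A log2 scale was assumed from the size of the largest values and from medians near 0. Signal over background is unknown, and the number of arrays limits the precision. Genes were named by the platform annotation, and 118 of 118 symbols matched RefSeq (GRCm38.p6) by Entrez ID. The symbol of the mutated gene and its probe are not reported here.

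Mean log ratios of replicates 2 to 4 were tested against 0, two-sided, by limma's lmFit and eBayes (limma 3.58.1, R 4.3.3), over the 5720 probes with a value on each. P-values were adjusted by Benjamini-Hochberg over all of them. Probes of a gene were kept apart. In simulated data with this variance, 200 probes per round were changed, by 2-fold or 4-fold. There 55.7% of 2-fold and 97.1% of 4-fold changes passed the adjusted threshold of 0.05, and 4.92% of calls were false. These shares depend on that number of changed probes. Of the unchanged simulated probes, 4.98% had an unadjusted p under 0.05 in limma, against 9.67% of all probes in the data. The shares may therefore not hold for these arrays. The half-width of the 95% interval had a median of 0.41 over the members.

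Every member could be named. The value on each array was to be given for members with an unadjusted p under 0.05, for a set of transporters well known in cortex, and for up to 3 further members per sign and group that kept a sign on replicates 2 to 4. Further values were added after they were seen. Members and lists were chosen with earlier results of these data known. Alternatives were the sign of replicate 1 in a fit of 4 arrays, centring, scale, missing values, array weights, averaging over a gene's probes, a robust prior, extreme probes left out and each replicate left out.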

Additional observations from a re-analysis of the deposited data

Results flagged for a closer look

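In 5 of the 84 member probes with 4 values, 1 array stood far from the other 3, by a gap that, divided by the range of all 4 values as deposited, passed Dixon's 95% limit. Chance flags about 1 in 20 such groups, which is near this number, and replicate 1 has an unknown sign. Slc1a1 (probe ID 418) had 0.90 on replicate 3, with a gap of 0.870 of its range and 0.937 when replicate 1 was turned. The choline transporter Slc5a7 had 0.42 on replicate 2, and Slc6a2 (probe ID 1201) had -2.10 on replicate 2. Slc22a17 had -0.93 on replicate 3. The sulphate transporter Slc26a2 had -3.88 on replicate 1. With replicate 1 turned, the gap of the last 4 was between 0.248 and 0.820 of the range, under the limit.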

How the results depend on the processing

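No member passed the adjusted threshold in limma under any of the 12 alternatives, with the smallest adjusted p between 0.141 and 0.970, while 2 to 21 members had an unadjusted p under 0.05. Against 9 members in the fit of replicates 2 to 4, that number was 9 after turning replicate 1 in a fit of 4 arrays and 7 without turning it, 2 of these positive. It was 21 with array weights, which gave 18.7% of all probes such a p, and it ranged from 2 to 14 with a replicate left out. A single sign on every array used was kept by 28 members. With all 4 arrays it was kept by 15 with replicate 1 turned and by 13 as deposited, where a further array had to share it, and by 40 to 56 with a replicate left out, where fewer did. The median of the means stayed negative, at -0.060 with replicate 1 as deposited, -0.14 with array weights and -0.13 to -0.099 with a replicate left out. All 9 members with an unadjusted p under 0.05 stayed negative under every alternative. Slc35a2 and Slc5a4a kept such a p throughout, while 7 of the 9 lost it without replicate 2, and 4 without replicate 4. In the fits of 4 arrays, 3 of the 9 lost it after turning replicate 1, and 4 without turning it. No paired analysis was possible because the null samples were each set against the same pool. Intensities were not used here, so dim probes could not be left out.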
